A study of Mus musculus with 12 samples.

Results

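The suppressors of cytokine signaling (SOCS) are 8 genes in the mouse, Socs1 to Socs7 and Cish, and all 8 were measured among 22243 genes in M1-activated bone marrow-derived macrophages (BM-Mɸs). They were taken by gene symbol from a table of principal transcripts, which holds 14 of their transcripts among 28808, and the abundances of each gene's transcripts, in TPM, were added. TPM is a share of the library after division by transcript length, so that levels of different genes can be set side by side. BM-Mɸs came from 6 LysMCre/ErbB4-floxxed mice (ErbB4myeKO) and 6 ErbB4-floxxed littermates without Cre (ErbB4FF), 1 of each from 6 litters of C57Bl/6 mice, so the floxed Erbb4 allele was shared by every mouse. LysM-Cre sits in the lysozyme gene Lyz2 and acts in the myeloid lineage as a whole, and the age and sex of the mice are not on the labels. Cells were grown in CMG14-12 conditioned medium (1:20) as the source of M-CSF, then given 100 U/mL of interferon-γ (IFN-γ) for 16 h and 100 ng/mL of lipopolysaccharide (LPS) for 6 h. No library was left unstimulated, so the levels below describe activated cells and not their induction.

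SOCS proteins are the classical feedback inhibitors of JAK-STAT signaling. Cytokines activate Janus kinases (JAKs) bound to their receptors, the JAKs phosphorylate STAT transcription factors, and STATs switch on Socs genes. The SOCS proteins then bind the receptor or the JAK through an SH2 domain and recruit an elongin and cullin 5 ubiquitin ligase through their SOCS box. In macrophages SOCS1 restrains the response to IFN-γ and type I interferon, SOCS3 restrains signaling through gp130, the chain shared by the IL-6 family, and CIS and SOCS2 are best known as STAT5 targets that limit the response to growth hormone and related cytokines. SOCS4 to SOCS7 are less well described, and SOCS4 and SOCS5 have been linked to receptors of the epidermal growth factor family, to which ErbB4 belongs.

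The start sites of 4 of the 8 members could be read from RefSeq (GRCm38.p6), and the stretches below show where the start sites of the 3 best known feedback genes carry the letters that STAT dimers (TTCNNNGAA) and interferon regulatory factors (GAAA, any 2 bases, GAAA) are known to bind. Capitals mark those letters, found on both strands in a window of 300 bases, of which 250 lie before the start. Socs1 is shown for chr16:10785537-10785786 on the minus strand, which ends 1 base before the annotated start of the gene. Socs3 is shown for chr11:117969367-117969616 on the minus strand, upstream of its principal transcript and overlapping an exon of a non-coding Socs3 transcript in GENCODE. Cish is shown for chr9:107296655-107296682 on the plus strand, inside the 5′ UTR that GENCODE gives its principal transcript.
Socs1: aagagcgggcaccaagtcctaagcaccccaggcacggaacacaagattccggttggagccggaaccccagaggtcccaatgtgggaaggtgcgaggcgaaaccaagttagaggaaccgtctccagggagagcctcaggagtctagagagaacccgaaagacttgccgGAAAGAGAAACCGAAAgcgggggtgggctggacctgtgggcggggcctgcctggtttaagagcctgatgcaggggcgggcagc
Socs3: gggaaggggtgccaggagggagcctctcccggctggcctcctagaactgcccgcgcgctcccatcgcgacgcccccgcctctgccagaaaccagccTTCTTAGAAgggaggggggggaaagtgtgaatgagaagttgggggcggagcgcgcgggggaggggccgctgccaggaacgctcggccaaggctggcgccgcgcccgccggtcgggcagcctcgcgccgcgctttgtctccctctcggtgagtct
Cish: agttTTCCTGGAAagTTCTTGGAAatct

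Socs1 held 2 overlapping interferon regulatory factor matches at 83 and 77 bases before the start, and no STAT match. Socs3 held 1 STAT match, which began 154 bases before the start. Cish held 2 STAT matches at positions 1 and 12 counted from the start, in the same short stretch. The window of Socs4 held neither. Of 32851 RefSeq promoter windows of this length, 8.30% held at least 1 STAT match and 0.457% at least 2, and 3.44% held at least 1 interferon regulatory factor match and 0.225% at least 2. A match is a run of letters and was not tested as a binding site.

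The libraries carried the macrophage markers. All 7 listed macrophage genes passed the filter of a mean of 1 TPM, with summed levels of 4981 to 9857 TPM in the 6 libraries labelled ErbB4myeKO and 5088 to 14835 TPM in the 6 labelled ErbB4FF. No lymphocyte or erythroid marker was above the filter, and the 8 neutrophil markers summed to 39.6 to 371 TPM and 39.9 to 185 TPM in the respective groups, with Ly6g, Elane and Mpo never above 1 TPM. The 6 dendritic cell markers summed to 44.4 to 122 TPM and 30.4 to 93.8 TPM, with Siglech at 0 throughout, and the 4 fibroblast markers to 8.16 to 56.7 TPM and 9.83 to 51.0 TPM, and the part of such cells in the results below was not tested. Between genotypes, 1 of 7 macrophage markers was lower at an unadjusted p under 0.05 in limma, and 1 of 4 tested neutrophil, 1 of 3 tested dendritic cell and 0 of 4 fibroblast markers were higher, where 4.38% of all 8780 genes tested were lower and 3.83% higher. Fcgr1, the high-affinity IgG receptor of macrophages, was at 114 ± 68.1 TPM in ErbB4myeKO and 212 ± 120 TPM in ErbB4FF libraries (SD, n = 6; log2 ratio -0.86, limma adjusted p = 0.603) and was lower in 6 of 6 litters. The other macrophage markers had ratios of -0.59 (Lyz2, -0.99 without litter 6), -0.20 (Itgam), -0.12 (Cd68, -0.03 without litter 2), 0.01 (Adgre1), 0.05 (Csf1r) and 0.14 (Mertk, 0.07 without litter 6). Mertk was higher in 6 of 6 litters. The list median of -0.12 ran from -0.17 to -0.03 with 1 litter left out. Of the tested neutrophil markers, Camp had a ratio of 0.45 (limma adjusted p = 0.603, higher in 6 of 6 litters), S100a8 of 0.30 (0.09 without litter 6), S100a9 of -0.24 and Ngp of -0.36. Their median was 0.03, and it was 0.22 without litter 3, when all 4 were positive, and -0.22 without litter 6. The 3 dendritic cell markers that were tested, Xcr1 (0.63, limma adjusted p = 0.603), Ccr7 (0.33) and Clec9a (0.10), were positive, with a median of 0.33 that ran from 0.21 to 0.49, and 2 of 3 were positive without litter 5 or litter 6. The 4 fibroblast markers were positive too, with a median of 0.17 that ran from -0.05 (without litter 2) to 0.37, and 2 of 4 were positive without litter 2, 5 or 6. Erbb4 itself was near the floor, at 0.583 ± 0.242 TPM in libraries labelled ErbB4myeKO and 0.450 ± 0.132 TPM in those labelled ErbB4FF (SD, n = 6), and was higher in the former in 4 of 6 litters (two-sided exact permutation p = 0.250). The TPM of the whole transcript therefore did not separate the labels, and the floxed exon cannot be read from it. Lyz2, whose locus holds the Cre, was lower in the ErbB4myeKO library in 5 of 6 litters (5305 ± 1985 against 8277 ± 3445 TPM, exact permutation p = 0.219). In litter 6 it was higher, at a log2 ratio of 1.43. Both libraries of litter 5 stood apart from the other 10, and results that rest on them are given with and without them.

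**Figure D1:**
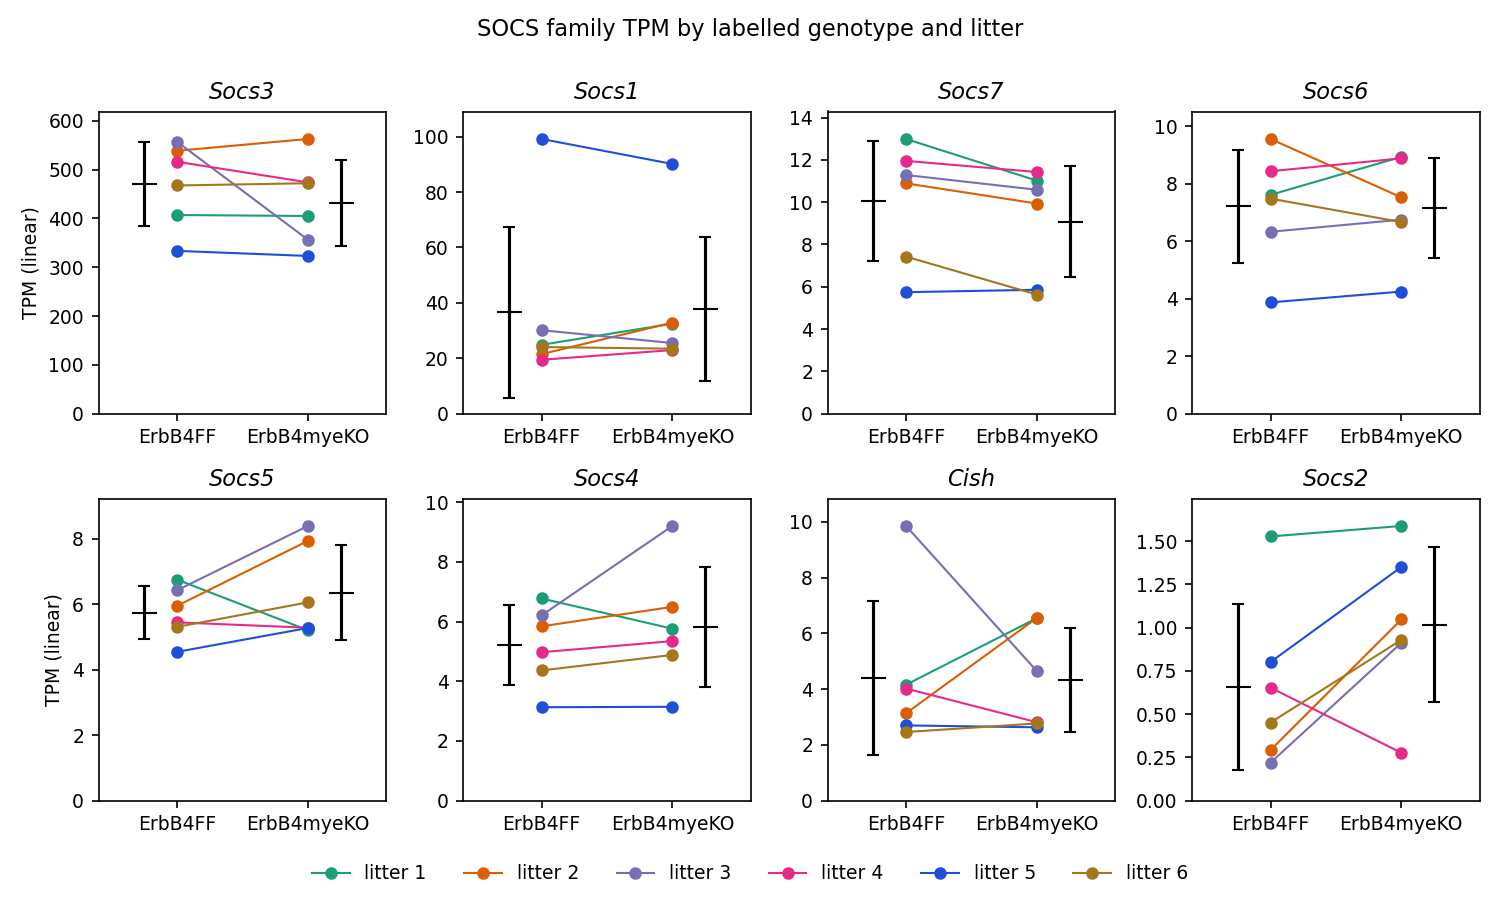
TPM of the 8 SOCS family genes on linear axes that start at 0, 1 panel per gene, in order of mean level. Points are libraries, lines join littermates, and black bars are the group mean ± SD (n = 6). Litter 5 lies highest for Socs1 in both groups and lowest for Socs3, Socs4 and Socs6.

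Socs3 was by far the most abundant member in these cells. It was measured at 323, 438 and 563 TPM (lowest, median and highest of 6) in ErbB4myeKO libraries and at 333, 492 and 557 TPM in ErbB4FF libraries. The groups overlapped almost wholly, and Socs3 ranked 245 of 8780 genes tested by mean TPM. It supplied 73.5% to 90.4% of the summed TPM of the family in each library.

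Socs1, the main brake on IFN-γ signaling, came next. Its levels were 23.0, 29.0 and 90.1 TPM in ErbB4myeKO libraries and 19.5, 24.4 and 99.1 TPM in ErbB4FF libraries. The highest value of each group came from litter 5. Socs3 was 12.5 to 26.5 times as abundant as Socs1 in the 10 libraries of the other litters and 3.36 and 3.58 times as abundant in those of litter 5.

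The 4 members that are less well known lay close together. Socs7 was at 5.63, 10.3 and 11.4 TPM in ErbB4myeKO libraries and at 5.74, 11.1 and 13.0 TPM in ErbB4FF libraries. Socs6 was at 4.25, 7.14 and 8.94 TPM against 3.87, 7.55 and 9.56 TPM. For both genes the 2 libraries of litter 5 were low, and for Socs7 those of litter 6 were low too (5.63 and 7.42 TPM). Socs5 was at 5.21, 5.67 and 8.39 TPM against 4.55, 5.70 and 6.75 TPM. Socs4 was at 3.14, 5.55 and 9.20 TPM against 3.13, 5.41 and 6.77 TPM. In both, the highest value belonged to the ErbB4myeKO library of litter 3, and each group covered the median of the other.

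The members known as STAT5 targets were the lowest. Cish was at 2.63, 3.73 and 6.55 TPM in ErbB4myeKO libraries and at 2.46, 3.58 and 9.86 TPM in ErbB4FF libraries. Its highest value was that of the ErbB4FF library of litter 3, whose littermate was at 4.65 TPM. Socs2 was at 0.277, 0.988 and 1.59 TPM against 0.220, 0.552 and 1.53 TPM. It was the one member whose mean (0.837 TPM) fell under the filter.

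The order of levels was thus Socs3, Socs1, Socs7, Socs6, Socs5, Socs4, Cish and Socs2. Socs3 lay above Socs1, Socs1 above Socs7, and Cish above Socs2 in 12 of 12 libraries. In ErbB4myeKO libraries, Socs3 exceeded Socs1 by 3.66 ± 0.94 on the log2(TPM + 0.5) scale and Socs1 exceeded Socs7 by 1.87 ± 1.02 (SD, n = 6). The neighbours in the middle of the order were not separated by library. Socs7 lay above Socs6 in 10 of 12 libraries, Socs6 above Socs5 in 7, Socs5 above Socs4 in 8 and Socs4 above Cish in 9. For Socs6 and Socs5 the log2 difference in ErbB4FF libraries (0.27 ± 0.35) was smaller than its SD.

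The comparison the design was made for is between littermates, and no member differed between the genotypes beyond the spread of the litters. Of the 7 members that passed the filter, 0 had an adjusted p under 0.05 in limma with litter as a block, where 0% of the 8780 genes tested did (smallest adjusted p = 0.603). At an unadjusted p under 0.05 the count was also 0 of 7, where 8.21% of all genes tested passed, 336 of them higher and 385 lower in ErbB4myeKO libraries. None of the 7 moved the same way in 6 of 6 litters, against 4.82% of all genes, and in none did the groups fail to overlap, against 0.0456%. In bulk RNA, fewer cells that express a gene and less of its RNA per cell cannot be told apart.

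**Figure D2:**
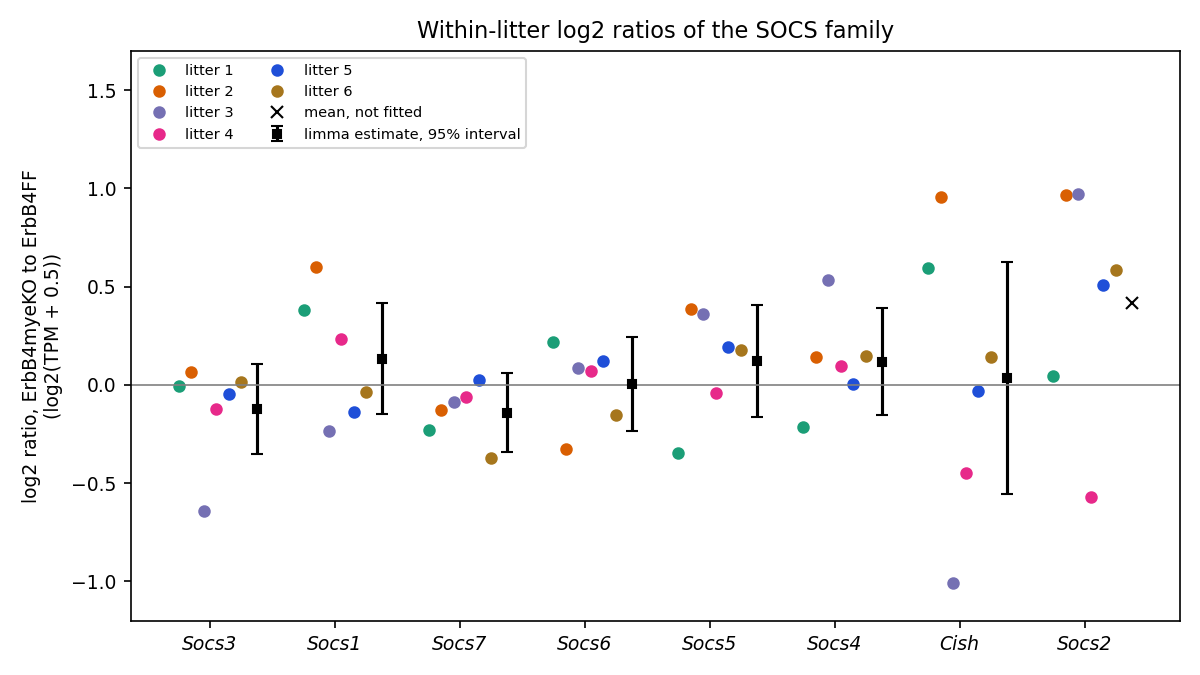
Log2 ratio of ErbB4myeKO to ErbB4FF within each litter for the 8 members, on the log2(TPM + 0.5) scale. Circles are litters, black squares the limma estimate with its 95% interval, and the cross is the mean of Socs2, which was below the filter. Each interval crosses 0.

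Ratios are given on the log2(TPM + 0.5) scale, which understates changes of low genes, with positive values for more in ErbB4myeKO. For Socs3 the ratio was -0.12 (SE 0.10, 95% interval -0.35 to 0.10, limma adjusted p = 0.708), a fold of 0.918, and it was higher in 2 of 6 litters. Most of that difference came from litter 3, in which Socs3 stood at 356 TPM in the ErbB4myeKO library and 557 TPM in its littermate (log2 ratio -0.64). The other 5 litters lay between -0.12 and 0.06, and without litter 3 the mean ratio was -0.02. For Socs1 the ratio was 0.13 (SE 0.12, interval -0.15 to 0.42, limma adjusted p = 0.739), with 3 litters higher and 3 lower. Litters 1, 2 and 4 lay between 0.23 and 0.60, and litters 3, 5 and 6 lay at -0.24, -0.14 and -0.03.

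Socs7, whose protein is known to bind insulin receptor substrate and the adaptor Nck, showed the steadiest within-litter difference. It was lower in 5 of 6 ErbB4myeKO libraries than in their littermates, where 28.2% of all genes tested moved the same way in at least 5 of 6 litters. Its ratio was -0.14 (SE 0.09, interval -0.34 to 0.06, limma adjusted p = 0.649), a fold of 0.907, and the two-sided exact permutation test over 64 swaps gave p = 0.0625, where 0.0312 is the smallest it can give. After the libraries were rescaled by median ratios the limma ratio was -0.15 (adjusted p = 0.634), and the exact permutation p was 0.0312, with the libraries of litter 5, the exception before, at 5.598 and 5.599 TPM.

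Socs4 and Socs5 had ratios of 0.12 each. For Socs4 (SE 0.12, interval -0.16 to 0.39, limma adjusted p = 0.761) 5 of 6 litters were higher, and litter 3 was the farthest at 0.53. For Socs5 (SE 0.12, interval -0.16 to 0.41, limma adjusted p = 0.762) 4 of 6 were higher. Socs6 had a ratio of 0.00 (SE 0.10, interval -0.24 to 0.24, limma adjusted p = 0.995), whose sign depended on which litter was included. The intervals reached folds of 0.893 to 1.33 for Socs5 and 0.849 to 1.18 for Socs6.

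Cish was the member with the widest spread between littermates. Its ratio of 0.03 (SE 0.25, interval -0.55 to 0.62, limma adjusted p = 0.971) averaged litter values that ran from -1.01 in litter 3 to 0.96 in litter 2, and the interval spans folds of 0.681 to 1.54. Socs2 was higher in 5 of 6 ErbB4myeKO libraries, with a mean log2 ratio of 0.42 ± 0.59 (SD, n = 6) and an exact permutation p of 0.156. In a limma fit without the filter its adjusted p was 0.764. At these levels 1 of its transcripts had an authors' geometric mean of 3.64 normalized estimated counts, against 6720 for Socs3, so that the depth behind the Socs2 ratio is slight.

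Over all 6 litters, the SD of the litter means exceeded the SD within litters most for 4 members. A litter mean averages both littermates, so its SD would be the smaller if litters did not differ. Similar values of both SDs therefore do not show that litters were alike. For Socs1 the SD of the 6 litter means was 0.78 on the log2 scale against 0.23 within litters, for Socs7 0.43 against 0.10, for Socs4 0.40 against 0.17 and for Socs6 0.38 against 0.14. Without litter 5 the SD of the litter means was 0.17 for Socs1, below the 0.23 within all 6 litters, so for Socs1 most of the difference rested on litter 5. For Socs6, Socs4 and Socs7 it was 0.17, 0.25 and 0.34 without that litter, above their values within all 6 litters. For Cish (0.50 against 0.50), Socs2 (0.43 against 0.42), Socs5 (0.20 against 0.19) and Socs3 (0.26 against 0.19) the values were closer together, and for Socs3 the SD of the litter means was 0.16 without litter 5. Each litter carries its own batch letter on the labels, so a litter and the handling it shared cannot be told apart.

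Litter 5 accounted for the largest of these differences, and the members lay on both sides of the other litters. Socs1 was at 90.1 and 99.1 TPM in the libraries of litter 5 and at 19.5 to 32.9 TPM in the other 10, a log2 difference of 1.88. Both libraries lay above all others, as did 20.2% of all genes tested. The other 6 members that passed the filter were lower in litter 5, by -0.86 for Socs6, -0.81 for Socs4, -0.75 for Socs7, -0.60 for Cish, -0.52 for Socs3 and -0.31 for Socs5. Socs6 (4.25 and 3.87 against 6.33 to 9.56 TPM), Socs3 (323 and 333 against 356 to 563 TPM) and Socs4 (3.14 and 3.13 against 4.36 to 9.20 TPM) lay below all of the other 10 libraries in both, as did 19.9% of all genes tested.

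**Figure D3:**
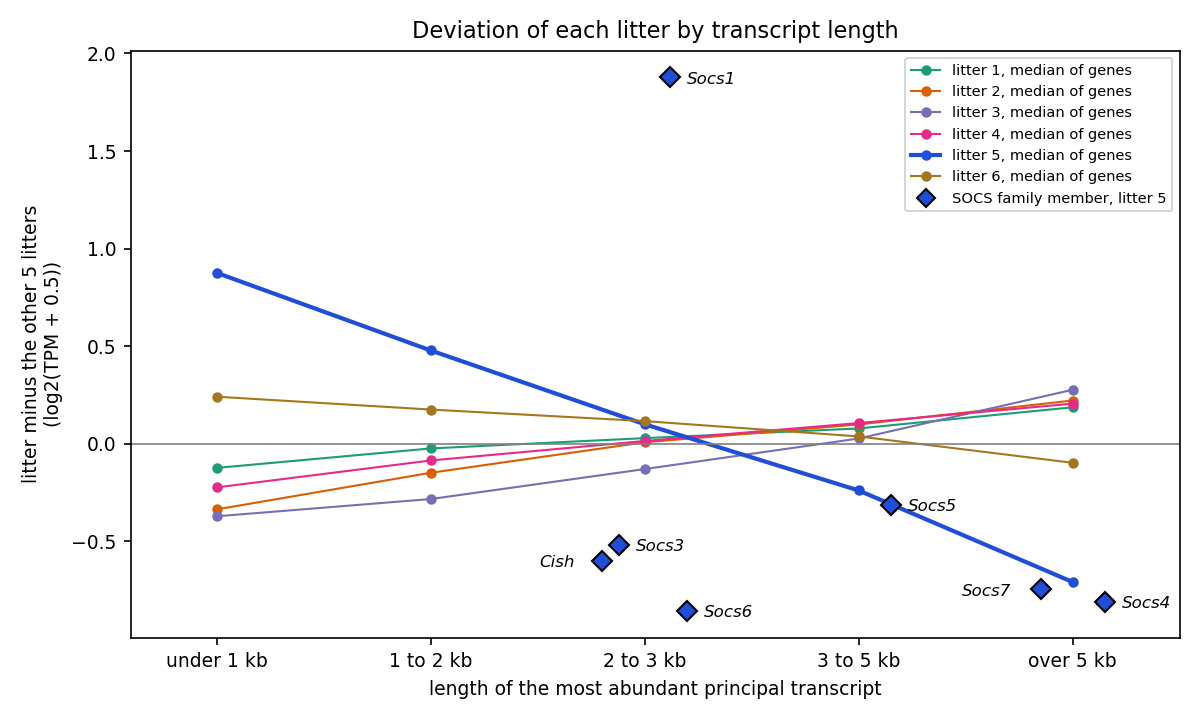
Level of each litter minus the mean of the other 5, on the log2(TPM + 0.5) scale, by length of the most abundant principal transcript. Lines are medians over the tested genes of a length class for each litter, and diamonds are the 7 tested SOCS members in litter 5. Litter 5 runs from 0.88 in the shortest class to -0.71 in the longest, and Socs1 lies at 1.88 in a class whose median is 0.10.

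The same libraries differed from the rest by transcript length. Genes whose main transcript is under 1 kb had a median of 0.88 in litter 5 over the other litters, and those over 5 kb had -0.71, where the other 5 litters stayed between -0.37 and 0.28 in every length class. The principal transcripts in the table also took 71.4% and 74.7% of all TPM in litter 5 and 59.0% to 64.9% elsewhere. Socs4 (6877 bases), Socs7 (7015 bases) and Socs5 (4648 bases) lay near the medians of their length classes in litter 5, and after each library was rescaled within length classes their log2 differences were -0.16, -0.07 and -0.07. The part of transcript length in the remaining differences was not tested further.

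Socs1, Socs3, Socs6 and Cish all have main transcripts of 2 to 3 kb, a class whose median in litter 5 was 0.10. Of the 2061 genes of that class, 1.21% lay as high as Socs1 or higher in litter 5, while 11.7% lay as low as Socs6 or lower, 17.6% as low as Cish and 19.8% as low as Socs3. Rescaled within length classes, Socs1 kept a log2 difference of 1.80, Socs6 of -0.93, Cish of -0.67 and Socs3 of -0.60. On this scale Socs1 in litter 5 (84.3 and 92.8 TPM) lay above the other 10 libraries (19.0 to 32.6 TPM), as did 14.5% of all genes tested. Socs6 (3.97 and 3.62 against 6.20 to 9.43 TPM) and Socs3 (302 and 312 against 386 to 582 TPM) lay below them, as did 16.6% of all genes tested. The length class of Socs6 is uncertain, so its values by class are too. Its main transcript (2814 bases) was at 0.00157 TPM in the ErbB4myeKO library of litter 5 and 0 in the ErbB4FF library of litter 3. The authors' geometric mean count was higher for its transcript of 6036 bases (50.8 against 31.8). The class over 5 kb had a median of -0.71 in litter 5.

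Socs1 has 2 principal transcripts, of 2785 and 2908 bases, which share 99.0% and 94.8% of their 31-base words with each other and none with other genes. The split between them was unsteady. The shorter one took 31.7% of the gene's TPM in the ErbB4myeKO library of litter 1 and 78.7% in its ErbB4FF littermate, while the sums were 32.5 and 24.9 TPM. In litter 5 both transcripts were higher than in every other library. The shorter one was at 64.1 and 74.1 TPM, against at most 20.5 TPM elsewhere, and the longer one was at up to 26.1 TPM, against at most 22.2 TPM elsewhere.

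**Figure D4:**
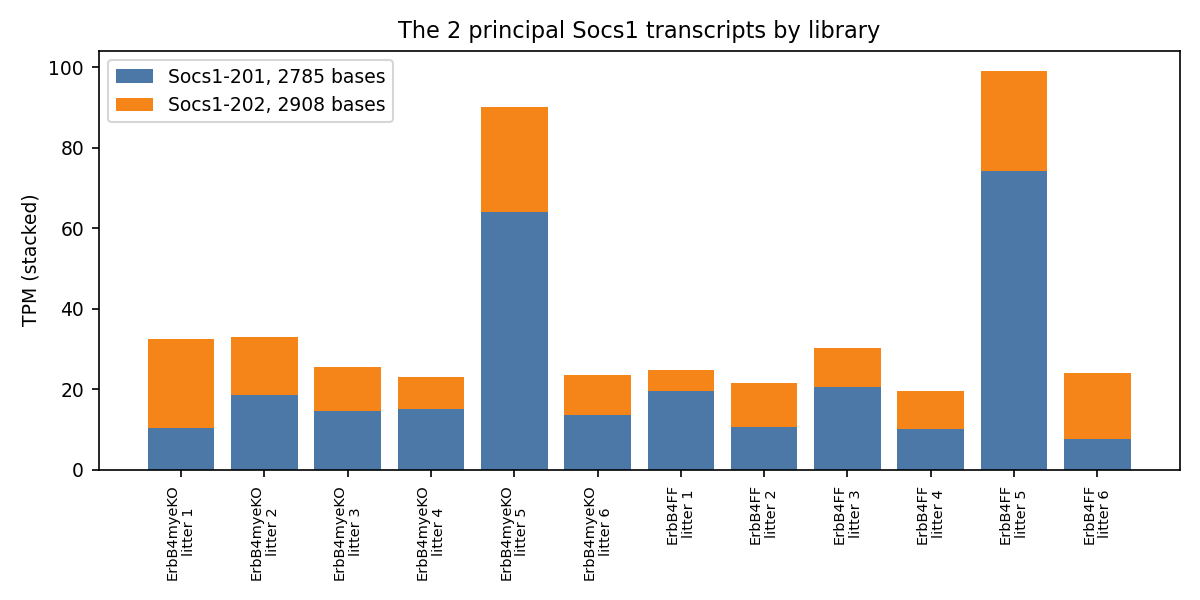
TPM of the 2 principal Socs1 transcripts, stacked (blue, 2785 bases, and orange, 2908 bases), in each of the 12 libraries, on an axis that starts at 0. The bars of litter 5 reach 90.1 TPM (ErbB4myeKO) and 99.1 TPM (ErbB4FF), and the other 10 lie between 19.5 and 32.9 TPM while the split within them varies.

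Transcripts of the other members also differ in how well short reads can place them. Socs3, Socs5, Socs7 and Cish share no 31-base word with transcripts of other genes, and Socs4 shares 1.05%. The 4 principal transcripts of Socs2 share 22.2% to 52.0% of theirs, most with the predicted genes Gm9847 and Gm8000, and 2 of the 4 were listed at 0 in all 12 libraries. The 3 of Socs6 share 13.6% to 28.7%, most with Gm9449 and Gm13188, so on this count the values of Socs2 and Socs6 are less certain. Transcripts absent from the table are a further limit. It holds 1 of 5 GENCODE transcripts of Cish, 1 of 3 of Socs5 and 2 of 2 of Socs1. The listed Cish transcript shares 75.7% of its words with other Cish transcripts, and that of Socs5 shares 21.2%. Any TPM placed on absent transcripts is missing from the sums.

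Within litters, the ratios of the members were compared in 28 pairs. Socs3 and Cish moved most alike, with a Pearson r of 0.85 over 6 litters (two-sided exact permutation p = 0.00417, Benjamini-Hochberg adjusted p = 0.117) and a Spearman rho of 0.94 (exact permutation p = 0.0167, adjusted p = 0.467). Both were lowest in litter 3 and highest in litter 2, their signs matched in 5 of 6 litters, and r was 0.81 without the 2 litters farthest from the median. After adjustment over the 28 pairs, 0 passed, and 1 of 28 had an unadjusted exact permutation p under 0.05. For Socs4 and Socs5, whose proteins are the closest relatives in the family, levels over the 12 libraries had a Pearson r of 0.83, and 0.83 without litter 5, as a description over libraries that share litters. This was the highest r of levels among the 28 pairs. Their within-litter ratios had a Pearson r of 0.77 (exact permutation p = 0.0861, adjusted p = 0.569). The levels of Socs3 and Cish had an r of 0.38, and 0.15 without litter 5.

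For each tested member, the genes with the most similar log2 levels over the 12 libraries were found. These correlations are descriptions over 12 libraries that share litters, batches and the length pattern of litter 5. For Socs1 the closest was Impdh2 (r = 0.99, and 0.94 over the 10 libraries without litter 5), followed by Mrfap1 (0.97, and 0.69) and Faap20 (0.96, and 0.29). The likeness of Faap20 thus rested on litter 5. For Socs3 the closest were Atg9a (0.96, and 0.94), Kdm4b (0.94, and 0.91) and Abca1 (0.93, and 0.87). For Cish they were Raver1 (0.92, and 0.93), Atp2b4 (0.89, and 0.88) and Il23a (0.89, and 0.87).

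For Socs6 the closest were Ikbke (r = 0.98, and 0.93 without litter 5), Herc6 (0.98, and 0.92) and Oasl2 (0.97, and 0.91), and over the 10 libraries without litter 5 Ppp2r5d came first (0.93, but -0.17 over all 12). For Socs7 they were Inpp5b (0.96, and 0.96), Nxf1 (0.96, and 0.94) and Il10ra (0.96, and 0.92). For Socs4, with a transcript of 6877 bases, they were Rif1 (0.98, and 0.96), Msl2 (0.98, and 0.96) and March6 (0.98, and 0.95), whose main transcripts have 8509, 4889 and 6260 bases. For Socs5 they were Zdhhc20 (0.92, and 0.90), Nfat5 (0.90, and 0.86) and Zfp260 (0.88, and 0.86).

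All 7 listed parts of the ubiquitin ligase that the SOCS box recruits passed the filter, and 1 of 7 was higher at an unadjusted p under 0.05, where 3.83% of all genes tested were. That was Nedd8, the ubiquitin-like protein that activates cullins, at 60.1 ± 10.8 against 49.4 ± 14.9 TPM (SD, n = 6; log2 ratio 0.31, SE 0.11, limma adjusted p = 0.603). The elongins Elob and Eloc, which link the SOCS box to the cullin, had ratios of -0.11 and -0.11 with adjusted p of 0.668 and 0.684 in limma. Cul5, the cullin itself, was at 0 or nearly 0 in both libraries of litter 5 while its highest level elsewhere was 6.57 TPM. The median ratio of the 7 was 0.03, beside -0.00 for all genes tested, and ran from -0.04 to 0.06 with 1 litter left out.

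**Figure D5:**
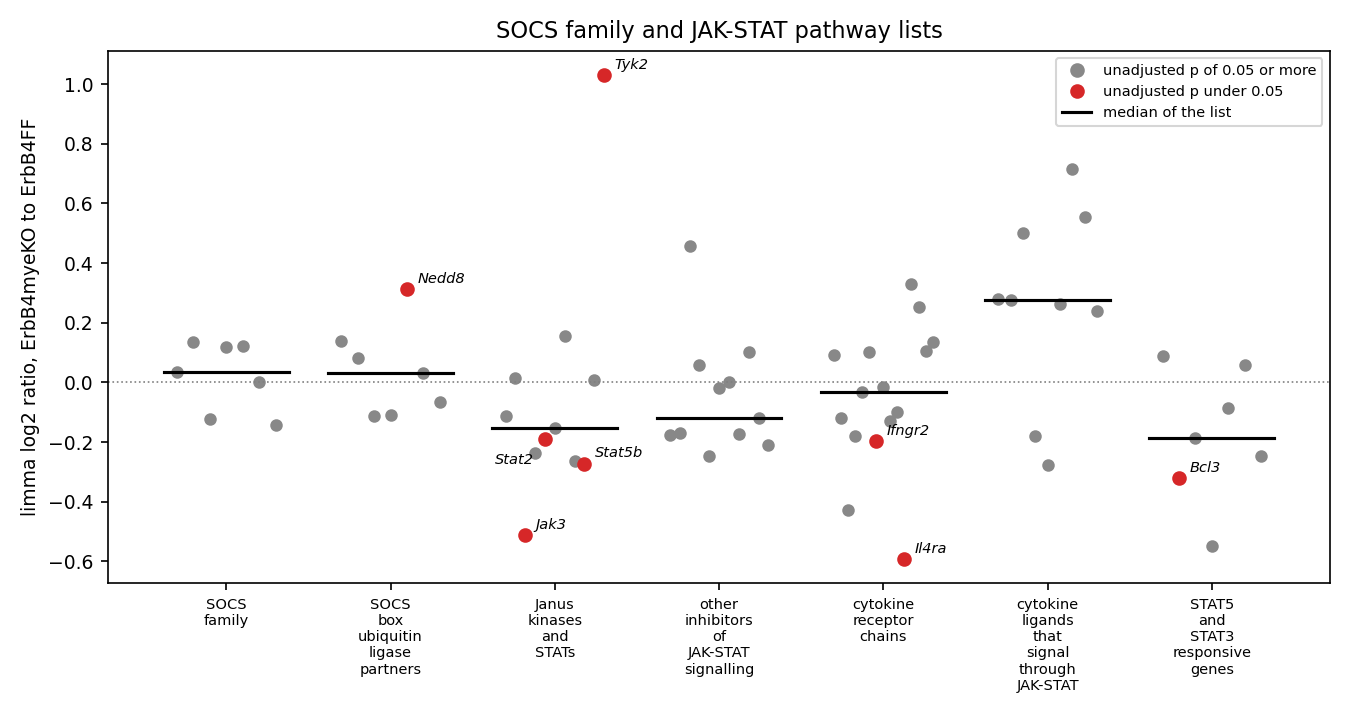
Limma log2 ratio of ErbB4myeKO to ErbB4FF for the tested genes of the SOCS family and of 6 related lists. Red points have an unadjusted p under 0.05 and black lines are list medians. None of the red genes passed after adjustment over all 8780 genes, and the SOCS family has no red point.

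All 11 listed JAKs and STATs, whose signal SOCS proteins inhibit, passed the filter. Of these, 3 were lower and 1 higher at an unadjusted p under 0.05, where 4.38% and 3.83% of all genes tested were, and 0 passed after adjustment in limma. Jak3, the kinase that pairs with the common γ chain, was at 5.89 ± 2.27 against 8.42 ± 2.77 TPM (SD, n = 6; log2 ratio -0.51, SE 0.16, limma adjusted p = 0.603) and was lower in 6 of 6 litters. Stat5b, 1 of the 2 STAT5 genes, was at 16.9 ± 5.06 against 20.8 ± 7.76 TPM (ratio -0.27, limma adjusted p = 0.603), and Stat2, a transcription factor of type I interferon signaling, at 130 ± 13.7 against 149 ± 24.2 TPM (ratio -0.19, limma adjusted p = 0.603). Each of these groups overlapped. Stat3, which drives Socs3, had a ratio of -0.15 (limma adjusted p = 0.603) and was lower in 6 of 6 litters. Tyk2 had a ratio of 1.03 (limma adjusted p = 0.603), but it was listed at 0 in 2 libraries and its highest was 27.3 TPM. The median of the list was -0.15.

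Receptor chains that feed into the family were mostly present. Of 21 listed, 15 passed the filter, of which 2 were lower and 0 higher at an unadjusted p under 0.05 (limma), where 4.38% and 3.83% of all genes tested were, and 0 passed after adjustment. Ifngr2, the signaling chain of the IFN-γ receptor whose output SOCS1 restrains, was at 97.9 ± 16.3 against 112 ± 18.9 TPM (log2 ratio -0.20, SE 0.06, limma adjusted p = 0.603) and was lower in 6 of 6 litters. Il4ra, a chain of the IL-4 receptor, had a ratio of -0.59 (SE 0.22, limma adjusted p = 0.603), which was -0.39 without litter 2. Il6st, which encodes gp130, the docking site of SOCS3, was at 6.61 ± 1.46 against 5.66 ± 2.02 TPM and was higher in 6 of 6 litters (ratio 0.25, limma adjusted p = 0.617, and 0.13 without litter 6). Receptors for growth hormone, leptin, erythropoietin and prolactin, which act through STAT5 or STAT3, stayed under the filter, as did Lifr and Egfr.

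Of 12 ligands that signal through JAK-STAT, 9 passed the filter and 0 had an unadjusted p under 0.05 in limma, where 8.21% of all genes tested did. Their median ratio was 0.28, beside -0.00 for all genes tested, with 7 of 9 positive, where 4372 of 8780 genes tested were, and without litter 2 it was 0.15 with 6 of 9 positive. Il6, whose signal SOCS3 limits, was at 2160 ± 1421 against 1345 ± 1109 TPM (ratio 0.71, SE 0.33, interval -0.05 to 1.47, limma adjusted p = 0.603). Il27, another user of gp130, was at 2364 ± 978 against 1904 ± 663 TPM (ratio 0.26, limma adjusted p = 0.668) and was higher in 3 of 6 litters. Without litter 2 the ratio of Il6 was 0.41 and that of Il27 0.08. Il10, which acts through STAT3 in macrophages, had a ratio of -0.18 (limma adjusted p = 0.663), and Il15 one of -0.28 (limma adjusted p = 0.603). The SDs of Il6 exceeded the difference between the group means, but they also hold the differences between litters. Within litters its log2 ratios had an SD of 0.97, and it was higher in 5 of 6 (two-sided exact permutation p = 0.156).

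Inhibitors of the same pathway outside the family gave no count either. Of 12 listed, 11 passed the filter, 0 had an unadjusted p under 0.05 in limma, where 8.21% of all genes tested did, and their median ratio was -0.12, beside -0.00 for all genes, and -0.04 without litter 2. Pias1, a SUMO ligase that inhibits STAT proteins, was lower in 6 of 6 litters (ratio -0.17, SE 0.08, limma adjusted p = 0.603). Usp18, which acts on the type I interferon receptor, was at 505 ± 124 against 583 ± 132 TPM (ratio -0.21, limma adjusted p = 0.612), and the phosphatase Ptpn1 had a ratio of -0.25 (limma adjusted p = 0.630), which was -0.10 without litter 2. Of 8 genes known to respond to STAT5 and STAT3, 7 passed the filter and 1 was lower at an unadjusted p under 0.05 in limma, where 4.38% of all genes tested were, with a list median of -0.19. That was Bcl3, a partner of NF-κB, at 56.1 ± 20.1 against 68.1 ± 18.9 TPM (ratio -0.32, SE 0.12, limma adjusted p = 0.603), while Sbno2 and Il2ra had ratios of -0.25 and -0.55 (limma adjusted p = 0.603 and 0.641).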

How the data were processed

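RNA of 12 cultures of M1-activated BM-Mɸs, 6 per labelled genotype, was sequenced as single-end reads of a stranded mRNA library. The authors pseudoaligned reads with kallisto and deposited TPM for principal transcripts, with mm10, CASAVA and sleuth also named in the submitters' processing notes. Versions and the transcriptome release are not given in the sources used here. The authors also deposited the mean natural log of normalized estimated counts per transcript, which is printed only as the authors' mean, and their own test columns (p-values, q-values, ratios), which were not used. The study's methods state 1 approximate read depth for all samples, but TPM does not hold the depth of each library, so no interval for counting error is given.

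Of 29213 lines, 405 repeated a transcript and were dropped, and TPM was summed per gene. limma 3.58.1 in R 4.3.3, with trend and litter as a block, was run on log2(TPM + 0.5) for the 8780 genes whose mean reached 1 TPM, with Benjamini-Hochberg adjustment over all of them. For each member, genotype was also swapped within litters in all 64 ways (exact permutation test, two-sided). The study's own test also adjusted for sex, which the labels do not give. P-values for genotype rest on the spread of the littermate difference over 6 litters, which limma also moderates across genes. On simulated data with 200 of 8780 genes changed, the fit recovered 65% of genes changed by 1 and 81% of those changed by 2 on the log2 scale, with 10 false calls of 156. The simulated noise was normal and independent between genes, and changes as small as the members' ratios were not simulated. It therefore does not show what the fit would recover for the members. Littermates come from 1 litter by design, and their deviations from the group means correlated at 0.273 to 0.774 in each of the 6 pairs. No 2 libraries held identical values.

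The members and the lists of partner and marker genes were chosen with earlier results of these data known. The text names all 8 members, genes of the lists of JAKs and STATs, ligands and receptor chains, in the other pathway lists the 3 tested genes with the smallest unadjusted p, the 3 tested genes most like each member, and Erbb4 and Lyz2 as checks. Cul5, the markers given with ratios, Ppp2r5d, the markers listed at or near 0 and the genes that share sequence with Socs2 and Socs6 were named after their values were seen where this rule did not give them. The values of 1 listed gene are not reported here. Gene names matched GENCODE M21, and promoters came from RefSeq GRCm38.p6 (4 of 8 members). Alternatives were no block, a covariate from 4 Y-linked genes, other pseudocounts and filters, other scalings, the most abundant transcript alone, and each litter left out.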

Additional observations from a re-analysis of the deposited data

Results flagged for a closer look

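Of 24 sets of 6 values for the members (TPM in each group and log2 ratios over litters), 4 held a value whose gap to its nearest neighbour was large against the range of the set. About 1.2 would be expected if the sets were independent and normally distributed. The TPM sets are untransformed and the ratios come from the same libraries, so the count is a description and not a test. Socs1 was at 90.1 TPM in the ErbB4myeKO library of litter 5, far above the other 5 of its group, and at 99.1 TPM in the ErbB4FF library of that litter. Both littermates stood apart in the same direction, so their log2 ratio of -0.14 did not.

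The log2 ratio of Socs3 in litter 3, at -0.64, lay apart from the other 5 litters, and Cish in the ErbB4FF library of litter 3 was at 9.86 TPM, far above the rest of its group. The 2 libraries of litter 3 also had the fewest genes above 0 (10214 and 10910, against 11645 to 12985 in the other 10), and the part of this in either value was not tested.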

How the results depend on the processing

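The 7 tested members stayed without an unadjusted p under 0.05 in limma in every alternative that was run. Ratios of Socs1, Socs2, Socs3, Socs4, Socs5 and Socs7 kept their sign throughout. That of Socs6, 0.00, became -0.0069 after rescaling by median ratios and ran from -0.041 (without litter 1) to 0.068 (without litter 2) with each litter left out. That of Cish, 0.03, ran from -0.15 (without litter 2) and -0.08 (without litter 1) to 0.24 (without litter 3). Without litter 3 the ratio of Socs3 went from -0.12 to -0.02 and that of Socs4 from 0.12 to 0.03, and without litter 1 that of Socs4 went to 0.18. That of Socs1 went from 0.13 to 0.04 without litter 2, 0.09 without litter 1 and 0.21 without litter 3. That of Socs5 went from 0.12 to 0.22 without litter 1, 0.07 without litter 2 and 0.07 without litter 3. With the most abundant transcript alone that of Socs2 went from 0.42 to 0.06 and that of Socs1 from 0.13 to 0.09. Rescaling within length classes, chosen after seeing the data, moved Socs4 to 0.07 and Socs7 to -0.19.

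Leaving out the litter block changed no call among the members, whose ratios stay the same by construction, and left 75 genes at an unadjusted p under 0.05 where the paired fit had 721. With each litter left out that count ran from 410 to 860, and 455 passed without litter 4. Across all genes, 0 passed after adjustment in every setting but 1, since leaving out each litter gave 0 to 1. Without litter 3, Igkv1-88 passed (log2 ratio -3.27, limma adjusted p = 0.0486), a gene named after its value was seen. Cish could not be fitted with a minimum of 5 TPM. Among named pathway genes, and chosen after seeing the data, leaving out 1 litter also moved the ratio of Stat3 to -0.10 and of Sbno2 to -0.16 (litter 3), of Il2ra to -0.33 and of Lif from 0.56 to 0.27 (litter 2), of Usp18 to -0.14, of Elob and Eloc to -0.07 each (litter 6; Elob also -0.07 without litter 3, Eloc -0.17), and of Il10 to -0.10 (litter 3). List medians that leaving out a litter moved by over 1.5 times and that stand above without it are that of the receptor chains, from -0.03 to -0.10 (litter 6), and that of the STAT5 and STAT3 responsive genes, from -0.19 to -0.12 (litter 6). The ratio of Socs2 was 0.64 with a pseudocount of 0.1 and 0.29 with 1, and rests on few estimated counts.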
